A study of Homo sapiens with 6 samples.

Results

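The aminoacyl-tRNA synthetases and their scaffold proteins were followed in T24 cells, an established human bladder cancer line. The 38 genes were found in the count table by mapping its Ensembl identifiers to gene symbols, and they are 38 of 60612 identifiers. They comprise 19 genes for cytosolic enzymes, 16 for mitochondrial enzymes and 3 for scaffold proteins of the multisynthetase complex (AIMP1, AIMP2 and EEF1E1). In 3 libraries labelled FOXF1-activated, by treatment and by genotype, the cells carried a lentiviral short hairpin (Lenti-dsFOXF1-367) made from a small activating RNA (saRNA), a duplex meant to raise transcription of its target. In 3 libraries labelled Negative control, with the genotype label WT, the cells carried the lentivirus Lenti-dsControl. A single protocol text, with selection in 3 µg/ml puromycin, stands for all 6 samples, and it names no clone. Total RNA was sequenced after removal of ribosomal RNA. No label says that replicates are separate cultures, so a p-value here reflects only how far these libraries scatter, and that scatter may be technical.

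Each synthetase joins an amino acid to its matching tRNA, which then delivers it to the ribosome. Most amino acids have separate nuclear genes for the enzyme of the cytosol and that of the mitochondrion, while GARS1 and KARS1 each encode both forms. Several cytosolic enzymes sit in the multisynthetase complex, held together by the scaffold proteins. Many cytosolic synthetase genes are known targets of ATF4, the transcription factor that cells translate when the initiation factor eIF2 is phosphorylated, and WARS1 is also known to be induced by interferon-gamma.

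Library totals were 72765654 to 76358542 counts in libraries labelled FOXF1-activated and 72500854 to 77198669 counts in negative controls. FOXF1, a forkhead transcription factor, went against its label. It stood at 5.94, 4.78 and 5.10 CPM (counts relative to the size of the library, scaled by TMM) in libraries labelled FOXF1-activated, against 7.51, 7.10 and 7.95 CPM in negative controls (log2 fold change -0.51, SE 0.14, edgeR adjusted p = 0.0109). All directions here therefore refer to the labels and not to a measured rise of FOXF1. Of 6 epithelial markers, 4 reached 1 CPM, and their sum was 1160 to 1239 CPM in libraries labelled FOXF1-activated, against 1657 to 1782 CPM in negative controls. Of 8 urothelial markers 1, PPARG, reached 1 CPM, and UPK1A, UPK3A and TP63 had no count in any library. Their sum was 61.0 to 67.4 CPM in libraries labelled FOXF1-activated and 53.7 to 57.9 CPM in negative controls, nearly all of it PPARG. Summed fibroblast markers spanned 313 to 499 CPM in libraries labelled FOXF1-activated and 412 to 463.5 CPM in negative controls, while endothelial markers spanned 4.67 to 13.5 CPM in libraries labelled FOXF1-activated and 4.82 to 8.63 CPM in negative controls. Summed leukocyte markers spanned 24.1 to 28.1 CPM in libraries labelled FOXF1-activated and 33.0 to 40.5 CPM in negative controls, with CD14 and CD68 lower and PTPRC and CD3E higher. Their part in the results below was not tested, and in bulk RNA fewer cells of a type cannot be told apart from less RNA per cell.

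Cytosolic synthetase genes were mostly higher in libraries labelled FOXF1-activated, and mitochondrial ones moved in both directions. Of the 19 cytosolic genes 13 rose, 3 fell (AARS1, FARSA and QARS1) and 3 did not pass the threshold of an edgeR adjusted p under 0.05 (HARS1, IARS1 and MARS1). Of the 16 mitochondrial genes 4 rose, 5 fell and 7 did not pass. The background of such calls was large, since 60.7% of the 20334 genes tested passed, 29.2% higher and 31.5% lower. Against it, 68.4% of the cytosolic genes rose and 15.8% fell, while 25.0% of the mitochondrial genes rose and 31.25% fell. The median log2 fold change was 0.40 for cytosolic genes and -0.08 for mitochondrial genes, beside 0.00 over all genes tested. All 38 genes passed the filter on low counts, with 197 to 55195 counts per library. Groups without overlap were common too, at 68.8% of all tested genes (33.5% higher and 35.3% lower). Each mention of such groups for single genes below stands beside that share.

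**Figure D1:**
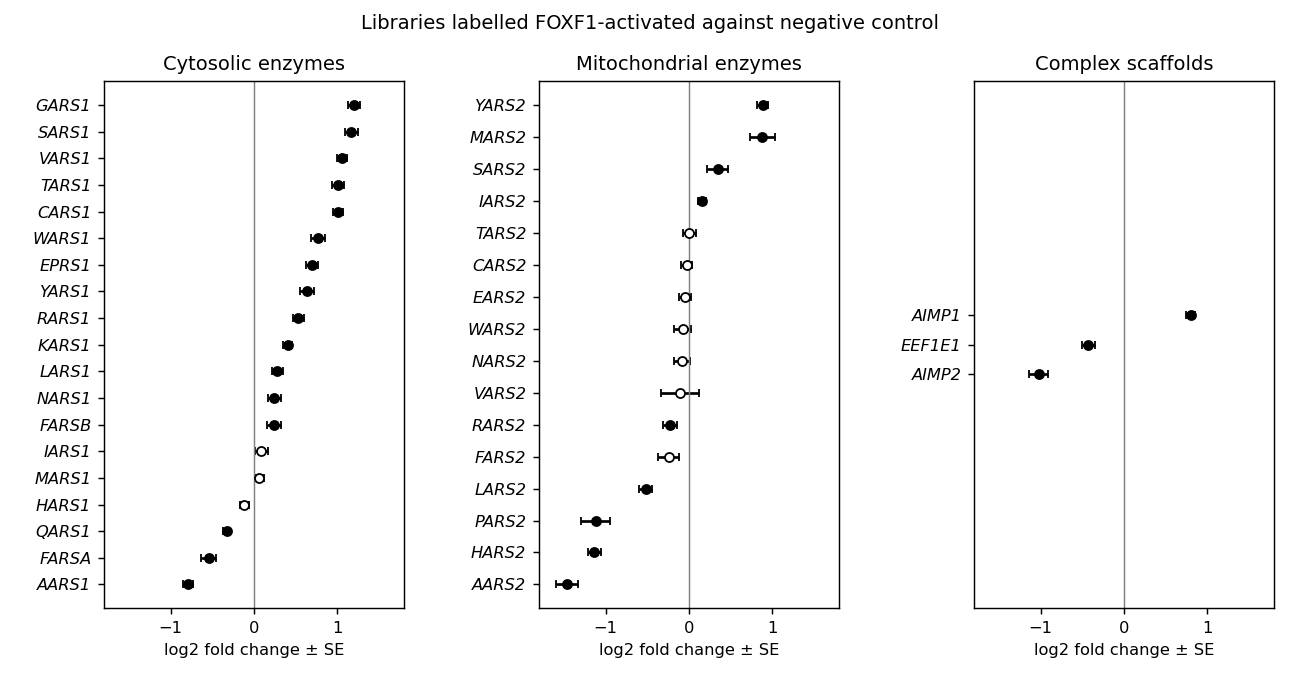
Log2 fold change of each gene (libraries labelled FOXF1-activated over negative control) with its standard error from edgeR, n = 3 libraries each, filled where the threshold was passed, for cytosolic enzymes, mitochondrial enzymes and scaffold proteins. Cytosolic genes run from -0.79 (AARS1) to 1.20 (GARS1), and mitochondrial genes from -1.46 (AARS2) to 0.88 (YARS2 and MARS2).

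The largest rise was in GARS1, the glycyl-tRNA synthetase of both cytosol and mitochondrion (chr7:30594681-30634033, plus strand, GRCh38). GARS1 stood at 759.5, 688 and 737 CPM in libraries labelled FOXF1-activated, against 286, 343 and 319 CPM in negative controls. The groups lay far apart, and the log2 fold change was 1.20 (SE 0.07, edgeR adjusted p = 6.24e-07). SARS1, which charges serine tRNA and is also the starting point of selenocysteine synthesis, was at 609.8, 580.3 and 566 CPM in libraries labelled FOXF1-activated, against 238, 295 and 249 CPM in negative controls (log2 fold change 1.17, SE 0.08, edgeR adjusted p = 1.35e-06). VARS1, the valyl enzyme, was at 202, 216 and 209.6 CPM in libraries labelled FOXF1-activated and at 106, 98.5 and 97.8 CPM in negative controls (log2 fold change 1.06, SE 0.06, edgeR adjusted p = 2.63e-07). Each of these genes had all its libraries labelled FOXF1-activated above all its controls. TARS1, the threonyl enzyme, was at 673, 566 and 641 CPM in libraries labelled FOXF1-activated and at 291, 332 and 313 CPM in negative controls (log2 fold change 1.01, SE 0.08, edgeR adjusted p = 2.39e-06). CARS1, the cysteinyl enzyme, was at 384, 359.6 and 375 CPM in libraries labelled FOXF1-activated and at 174, 201 and 182 CPM in negative controls (log2 fold change 1.01, SE 0.06, edgeR adjusted p = 7.64e-07). These 5 genes were the cytosolic members that changed at least 2-fold.

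Other cytosolic enzymes rose less. WARS1, the tryptophanyl enzyme, was at 405, 389 and 382 CPM in libraries labelled FOXF1-activated, against 204, 256 and 230.5 CPM in negative controls, without overlap (log2 fold change 0.77, SE 0.08, edgeR adjusted p = 2.10e-05). EPRS1, a fused enzyme for glutamate and proline, averaged 336 ± 19.7 CPM in libraries labelled FOXF1-activated and 208 ± 16.6 CPM in negative controls (SD, n = 3 each, log2 fold change 0.69). YARS1, the tyrosyl enzyme, averaged 241 ± 10.8 CPM in libraries labelled FOXF1-activated and 155 ± 19.1 CPM in negative controls (log2 fold change 0.63). RARS1, the arginyl enzyme, averaged 137 ± 10.7 CPM in libraries labelled FOXF1-activated and 95.0 ± 1.05 CPM in negative controls (log2 fold change 0.53). None of these had overlapping groups. KARS1, the lysyl enzyme of both compartments, was at 207, 207 and 206 CPM in libraries labelled FOXF1-activated, against 159.8, 161 and 148 CPM in negative controls (log2 fold change 0.40, SE 0.05, edgeR adjusted p = 1.03e-04). LARS1, the leucyl enzyme, averaged 211 ± 2.15 CPM in libraries labelled FOXF1-activated and 174 ± 13.9 CPM in negative controls (log2 fold change 0.28). NARS1, the asparaginyl enzyme, averaged 356 ± 24.7 CPM in libraries labelled FOXF1-activated and 300.0 ± 26.1 CPM in negative controls (log2 fold change 0.25, edgeR adjusted p = 0.0185). The NARS1 call ended without negative control replicate 1 (0.17) and without either FOXF1-activated replicate 1 (0.22) or 3 (0.21), as well as with library totals (0.17) and without a filter (0.22). Without GARS1 and KARS1, which serve both compartments, 11 of 17 cytosolic genes rose, 3 fell and the median log2 fold change was 0.28.

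**Figure D2:**
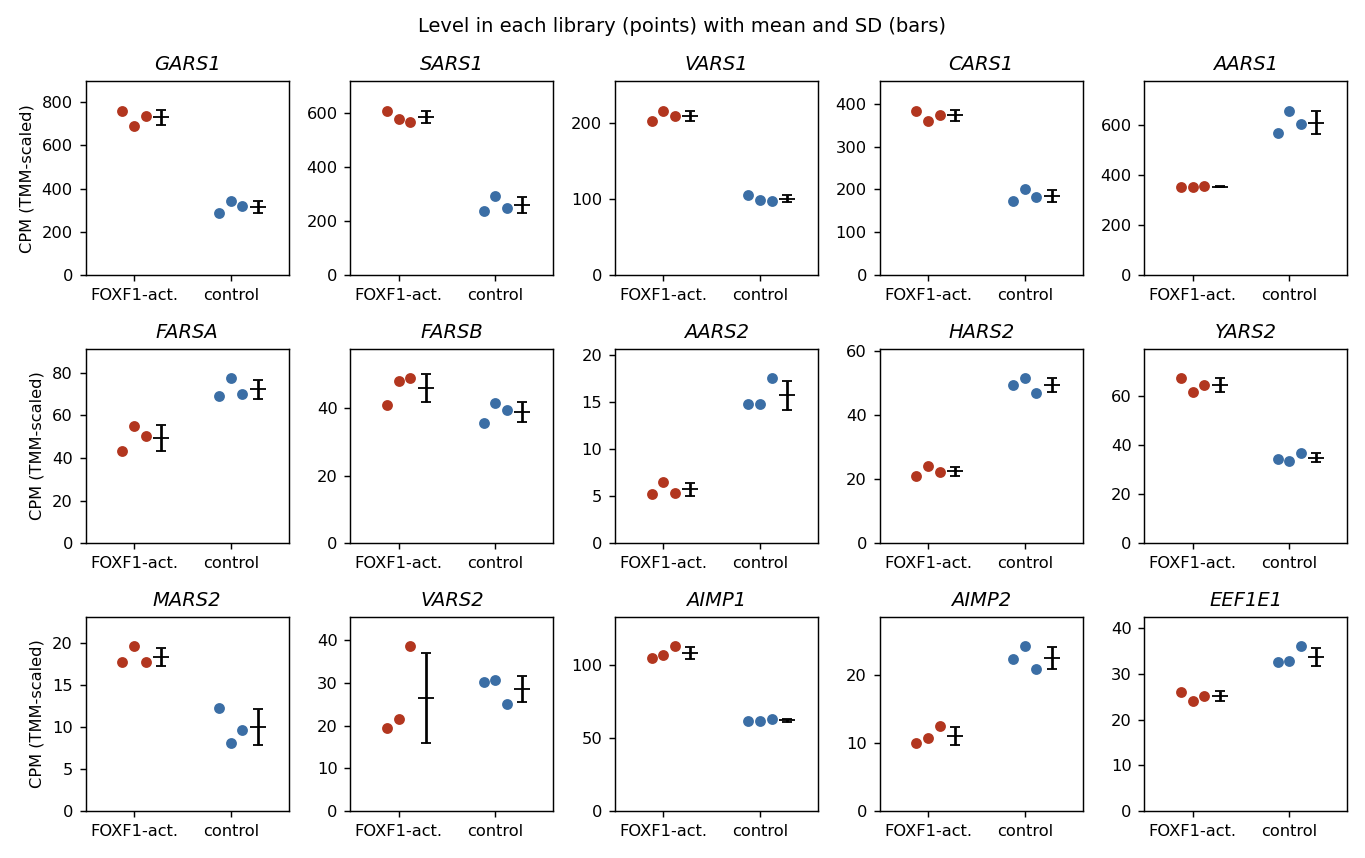
TMM-scaled CPM of selected genes in each library, with the libraries labelled FOXF1-activated left of the negative controls, points for libraries and bars for mean and SD. GARS1 sits at 688 to 759.5 CPM in libraries labelled FOXF1-activated against 286 to 343 CPM in negative controls, and AARS2 at 5.27 to 6.51 CPM in libraries labelled FOXF1-activated against 14.8 to 17.5 CPM in negative controls.

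AARS1, the alanyl enzyme, went the other way. It stood at 351, 351 and 354 CPM in libraries labelled FOXF1-activated, against 566, 656 and 603 CPM in negative controls, with no overlap (log2 fold change -0.79, SE 0.06, edgeR adjusted p = 2.54e-06). Per kilobase of its main transcript AARS1 was the most abundant member in negative controls, at 175 CPM per kb. In the libraries labelled FOXF1-activated it averaged 101 CPM per kb and ranked 9 among the 38 genes, where SARS1 led with 316 CPM per kb and GARS1 followed with 276.5 CPM per kb. QARS1, the glutaminyl enzyme, averaged 208 ± 1.31 CPM in libraries labelled FOXF1-activated and 261 ± 3.79 CPM in negative controls (log2 fold change -0.33, edgeR adjusted p = 1.60e-04). With offsets for GC content and length the QARS1 value was -0.08 and its call ended (edgeR adjusted p = 0.174).

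The phenylalanyl enzyme of the cytosol is built from an alpha subunit (FARSA) and a beta subunit (FARSB), and their transcripts did not move together. FARSA was at 43.1, 55.2 and 50.4 CPM in libraries labelled FOXF1-activated, against 69.2, 77.4 and 70.2 CPM in negative controls (log2 fold change -0.54, SE 0.09, edgeR adjusted p = 5.61e-04). FARSB was at 41.1, 48.0 and 48.9 CPM in libraries labelled FOXF1-activated, against 35.8, 41.6 and 39.6 CPM in negative controls (log2 fold change 0.24, SE 0.09, edgeR adjusted p = 0.0394). The groups were apart for FARSA and overlapped for FARSB. The count ratio of FARSA to FARSB was 1.05, 1.15 and 1.03 in libraries labelled FOXF1-activated, against 1.94, 1.86 and 1.77 in negative controls. Per length of the main transcripts the ratio was 1.95, 2.14 and 1.92 in libraries labelled FOXF1-activated, against 3.59, 3.46 and 3.29 in negative controls. The FARSB call ended without either negative control replicate 1 (0.17) or 3 (0.24) and without either FOXF1-activated replicate 2 (0.21) or 3 (0.19), as well as with library totals (0.16) and without a filter (0.21). With GC and length offsets the FARSA value was -0.19 and its call ended (edgeR adjusted p = 0.0653).

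The cytosolic genes that did not pass were close to level. HARS1, the histidyl enzyme, was at 107, 103 and 98.6 CPM in libraries labelled FOXF1-activated, against 108, 116 and 109.7 CPM in negative controls (log2 fold change -0.11, SE 0.06, edgeR adjusted p = 0.105). IARS1, the isoleucyl enzyme, was at 293, 308 and 299 CPM in libraries labelled FOXF1-activated, against 250.6, 312 and 283 CPM in negative controls (log2 fold change 0.09, SE 0.08, edgeR adjusted p = 0.335). MARS1, the methionyl enzyme, was at 323, 339 and 335 CPM in libraries labelled FOXF1-activated, against 300.3, 336 and 319.8 CPM in negative controls (log2 fold change 0.06, SE 0.06, edgeR adjusted p = 0.365). Only HARS1 had groups without overlap among these genes. The MARS1 value was 0.27 and passed with GC and length offsets (edgeR adjusted p = 0.00149), and it was -0.02 with library totals.

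Within the cytosolic enzymes, the 7 that belong to the multisynthetase complex and the 12 that do not differed in median. Of the 12 outside the complex 9 rose and 2 fell (median log2 fold change 0.70), and of the 7 inside it 4 rose and 1 fell (median 0.28). These counts and the next stand beside 29.2% higher and 31.5% lower over all tested genes. The catalytic class of the enzyme showed similar counts, with 6 of 9 class I genes higher and 1 lower (median 0.53) and 6 of 9 class II genes higher and 2 lower (median 0.25). EPRS1, which carries both classes, was left out of that split, and the split was chosen after the values were seen. None of these differences was tested.

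Promoter sequence was read from RefSeq windows (GRCh38.p14) that run from 250 bases before the first transcribed base to 50 bases after it, which were given for 33 of the 38 genes. The core of the CEBP-ATF response element, the site that ATF4 and its partners are known to bind, was searched as TGATGNAA on both strands. It lay in windows of 7 of 16 cytosolic genes (43.8%), of 1 of 14 mitochondrial genes (7.14%, YARS2) and of none of the 3 scaffold genes, beside 4.46% of the 27305 genes with a window. The stretches that hold the core are shown so that the genes with it can be set beside their fold changes, with the core in capitals (TTGCATCA is TGATGCAA read on the other strand) and each read 5′ to 3′ on the strand of its gene:
GARS1, chr7:30594835-30594862, plus strand: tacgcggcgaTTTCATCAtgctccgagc
CARS1, chr11:3057408-3057435, minus strand: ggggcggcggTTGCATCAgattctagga
TARS1, chr5:33440957-33440984, plus strand: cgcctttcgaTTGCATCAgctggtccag
NARS1, chr18:57621805-57621832, minus strand: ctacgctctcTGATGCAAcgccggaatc
AARS1, chr16:70289676-70289703, minus strand: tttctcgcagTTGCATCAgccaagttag
MARS1, chr12:57488054-57488081, plus strand: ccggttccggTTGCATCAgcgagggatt
IARS1, chr9:92293693-92293720, minus strand: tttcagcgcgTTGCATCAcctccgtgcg
YARS2, chr12:32756077-32756104, minus strand: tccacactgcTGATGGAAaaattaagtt
The core is TGATGCAA in 6 of the 8 genes, while GARS1 and YARS2 differ from it at the open base. In 4 of the 8 the core lies wholly before the first transcribed base. The core was not limited to the genes that rose. Of 10 cytosolic genes with a window that rose 4 held it (40.0%), and so did 3 of the 6 others (50.0%), among them AARS1, which fell. A match describes letters in this window and is not a measured binding site.

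**Figure D3:**
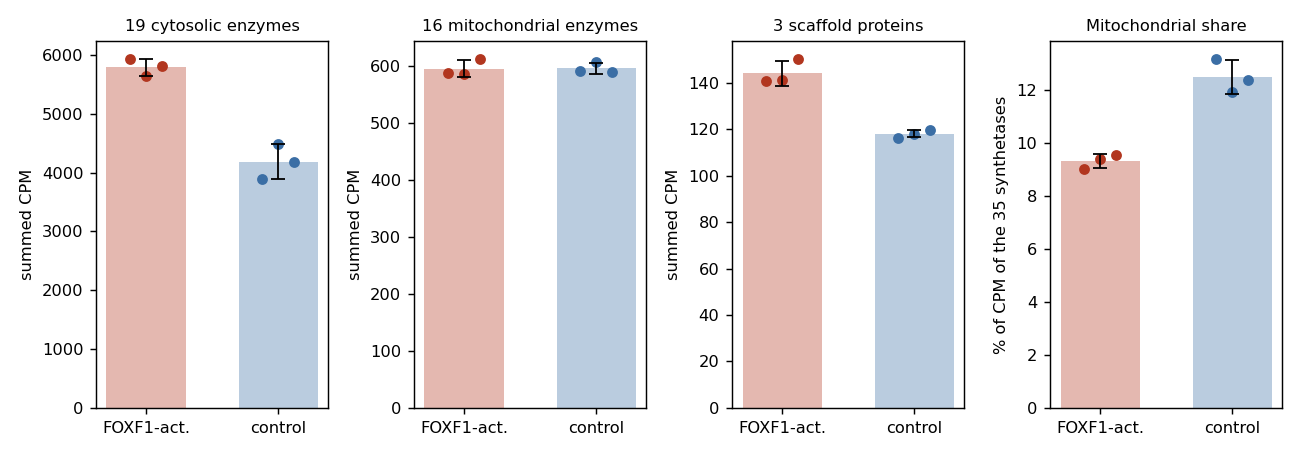
Summed TMM-scaled CPM of the cytosolic, mitochondrial and scaffold genes, and the mitochondrial share of synthetase CPM in percent, with the libraries labelled FOXF1-activated left of the negative controls, points for libraries, bars for the mean and error bars for the SD. The cytosolic sums are 5642 to 5924 CPM in libraries labelled FOXF1-activated against 3897 to 4488 CPM in negative controls, and the mitochondrial sums 586 to 612 CPM in libraries labelled FOXF1-activated against 589.7 to 606 CPM in negative controls. GARS1 and KARS1, which serve both compartments, are counted as cytosolic.

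The mitochondrial genes were of lower level, with a median of 7.89 CPM per kb in libraries labelled FOXF1-activated and 8.57 CPM per kb in negative controls, while the cytosolic genes had medians of 74.4 CPM per kb in libraries labelled FOXF1-activated and 69.1 CPM per kb in negative controls. Their summed level was 587, 586 and 612 CPM in libraries labelled FOXF1-activated, against 591, 606 and 589.7 CPM in negative controls, and these ranges overlapped. The cytosolic sum was 5924, 5642 and 5813 CPM in libraries labelled FOXF1-activated, against 3897, 4488 and 4173 CPM in negative controls, without overlap. As a share of reads, with no account of length, mitochondrial genes held 9.02%, 9.41% and 9.53% of the summed synthetase CPM in libraries labelled FOXF1-activated, against 13.2%, 11.9% and 12.4% in negative controls. All reads of GARS1 and KARS1, which serve both compartments, were counted as cytosolic here. Without these genes the cytosolic sum averaged 4858 ± 106 CPM in libraries labelled FOXF1-activated and 3714 ± 266 CPM in negative controls (SD), so the shares depend on where they are placed.

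Single mitochondrial genes changed strongly in both directions. AARS2, the alanyl enzyme of the mitochondrion (chr6:44299654-44313326, minus strand, GRCh38), fell most, at 5.27, 6.51 and 5.37 CPM in libraries labelled FOXF1-activated, against 14.8, 14.9 and 17.5 CPM in negative controls (log2 fold change -1.46, SE 0.13, edgeR adjusted p = 8.80e-06). HARS2, the histidyl enzyme, was at 21.1, 24.1 and 22.1 CPM in libraries labelled FOXF1-activated, against 49.5, 51.6 and 47.1 CPM in negative controls (log2 fold change -1.14, SE 0.08, edgeR adjusted p = 1.22e-06). PARS2, the prolyl enzyme, was at 2.80, 3.41 and 3.62 CPM in libraries labelled FOXF1-activated, against 8.10, 6.32 and 6.98 CPM in negative controls (log2 fold change -1.12, SE 0.17, edgeR adjusted p = 2.97e-04). PARS2 rested on 197 to 271 counts in libraries labelled FOXF1-activated and 485 to 646 counts in negative controls, the lowest of the 38 genes. LARS2, the leucyl enzyme, was at 25.8, 27.9 and 29.7 CPM in libraries labelled FOXF1-activated, against 38.8, 41.0 and 39.7 CPM in negative controls (log2 fold change -0.52, SE 0.08, edgeR adjusted p = 2.18e-04). In none of these genes did the groups overlap. RARS2, the arginyl enzyme, averaged 21.3 ± 1.28 CPM in libraries labelled FOXF1-activated and 24.9 ± 1.65 CPM in negative controls (log2 fold change -0.23, edgeR adjusted p = 0.0485). That call ended when negative control replicate 1 (-0.25) or 2 (-0.18) was left out, when FOXF1-activated replicate 1 (-0.25), 2 (-0.25) or 3 (-0.18) was left out, and under 6 other settings.

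YARS2 and MARS2 were the mitochondrial genes that clearly rose. YARS2, the tyrosyl enzyme, was at 67.1, 61.5 and 64.4 CPM in libraries labelled FOXF1-activated, against 34.1, 33.6 and 36.8 CPM in negative controls (log2 fold change 0.88, SE 0.07, edgeR adjusted p = 2.19e-06). MARS2, the methionyl enzyme, was at 17.7, 19.6 and 17.7 CPM in libraries labelled FOXF1-activated, against 12.2, 8.01 and 9.65 CPM in negative controls (log2 fold change 0.88, SE 0.15, edgeR adjusted p = 6.26e-04). The groups of both genes were apart. IARS2, the isoleucyl enzyme and by length the most abundant mitochondrial member, averaged 219 ± 6.27 CPM in libraries labelled FOXF1-activated and 196 ± 2.54 CPM in negative controls (log2 fold change 0.16, edgeR adjusted p = 0.0163). SARS2, the seryl enzyme, averaged 15.1 ± 2.04 CPM in libraries labelled FOXF1-activated and 11.9 ± 1.12 CPM in negative controls (log2 fold change 0.34, edgeR adjusted p = 0.0403). The IARS2 call ended when negative control replicate 1 (0.15) or FOXF1-activated replicate 3 (0.15) was left out. The SARS2 call ended without FOXF1-activated replicate 1 (0.38) or 2 (0.23), and likewise without replicate 2 (0.35) or 3 (0.27) of the negative controls. Without a filter the SARS2 call ended too (0.32). With library totals in place of TMM both calls ended (0.08 for IARS2 and 0.27 for SARS2), which left 2 mitochondrial genes higher.

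The mitochondrial genes that did not pass had mostly overlapping groups. CARS2, the cysteinyl enzyme, was at 57.4, 64.3 and 63.8 CPM in libraries labelled FOXF1-activated, against 58.8, 67.6 and 62.9 CPM in negative controls (log2 fold change -0.03, edgeR adjusted p = 0.743). EARS2, the glutamyl enzyme, was at 33.3, 32.2 and 34.99 CPM in libraries labelled FOXF1-activated, against 34.1, 36.6 and 33.1 CPM in negative controls (log2 fold change -0.05, edgeR adjusted p = 0.593). TARS2, the threonyl enzyme, was at 31.3, 30.7 and 34.9 CPM in libraries labelled FOXF1-activated, against 32.2, 33.2 and 31.2 CPM in negative controls (log2 fold change 0.00, edgeR adjusted p = 0.981). The spread between libraries covered the difference in each of these. NARS2, the asparaginyl enzyme, was at 24.0, 19.5 and 22.03 CPM in libraries labelled FOXF1-activated, against 24.4, 23.0 and 22.03 CPM in negative controls (log2 fold change -0.08, edgeR adjusted p = 0.485). WARS2, the tryptophanyl enzyme, was at 14.2, 14.5 and 12.7 CPM in libraries labelled FOXF1-activated, against 14.0, 14.9 and 14.7 CPM in negative controls (log2 fold change -0.08, edgeR adjusted p = 0.532). FARS2, the single-chain phenylalanyl enzyme, was at 7.40, 8.89 and 8.89 CPM in libraries labelled FOXF1-activated, against 9.17, 9.93 and 10.7 CPM in negative controls (log2 fold change -0.24, edgeR adjusted p = 0.131), and all its libraries labelled FOXF1-activated lay below the controls.

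VARS2, the valyl enzyme, was decided by a single library. It was at 19.5, 21.5 and 38.6 CPM in libraries labelled FOXF1-activated, against 30.2, 30.6 and 25.0 CPM in negative controls (log2 fold change -0.11, SE 0.23, edgeR adjusted p = 0.706). FOXF1-activated replicate 3 lay above all other libraries, and without it the log2 fold change was -0.48 and passed the threshold (edgeR adjusted p = 0.00807). GTF2H4, a subunit gene of the general factor TFIIH on the same strand, shares 1858 exon bases with VARS2, 21.99% of its exon length. GTF2H4 was at 8.46, 10.8 and 16.4 CPM in libraries labelled FOXF1-activated, against 14.7, 17.5 and 13.9 CPM in negative controls, and was also highest in replicate 3 among the libraries labelled FOXF1-activated.

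Setting each cytosolic gene against the mitochondrial gene for the same amino acid gives a ratio that does not depend on the scaling of libraries. Of 13 amino acids with such a pair, the ratio was higher in all libraries labelled FOXF1-activated for 10, lower in all of them for 2 (tyrosine and methionine) and overlapping for 1 (isoleucine). In CPM of single genes, the groups of 68.8% of all tested genes did not overlap, 33.5% higher and 35.3% lower. No such share was computed for ratios between genes. The median difference of the log2 ratio was 0.80. By a two-sided exact permutation test 3 libraries against 3 cannot go below p = 0.1, which 12 pairs reached (0.108 after Benjamini-Hochberg adjustment over the 13).

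The pairs that widened did so by different routes. For valine the log2 count ratio was 3.38, 3.33 and 2.44 in libraries labelled FOXF1-activated, against 1.81, 1.69 and 1.97 in negative controls (difference 1.23, or 1.53 without FOXF1-activated replicate 3). For cysteine it was 2.74, 2.48 and 2.55 in libraries labelled FOXF1-activated, against 1.57, 1.57 and 1.53 in negative controls (difference 1.04). For histidine it was 2.35, 2.09 and 2.16 in libraries labelled FOXF1-activated, against 1.13, 1.17 and 1.22 in negative controls (difference 1.02). In the cysteine pair the cytosolic gene rose and the mitochondrial gene did not pass, and in the histidine pair the mitochondrial gene fell while the cytosolic gene did not pass. In the alanine pair both genes fell, AARS2 further than AARS1, so that the ratio was higher (difference 0.67). The remaining wider pairs were threonine (1.005), tryptophan (0.85), serine (0.83), leucine (0.80), arginine (0.76) and asparagine (0.34).

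The exceptions were methionine, tyrosine and isoleucine. For methionine the log2 ratio was 4.19, 4.12 and 4.24 in libraries labelled FOXF1-activated, against 4.62, 5.39 and 5.05 in negative controls (difference -0.84). For tyrosine it was 1.77, 1.99 and 1.96 in libraries labelled FOXF1-activated, against 2.01, 2.38 and 2.06 in negative controls (difference -0.25). For isoleucine it was 0.38, 0.54 and 0.44 in libraries labelled FOXF1-activated, against 0.38, 0.67 and 0.52 in negative controls (difference -0.07, exact permutation p = 0.7). IARS1 did not pass, and the rise of IARS2 was small.

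**Figure D4:**
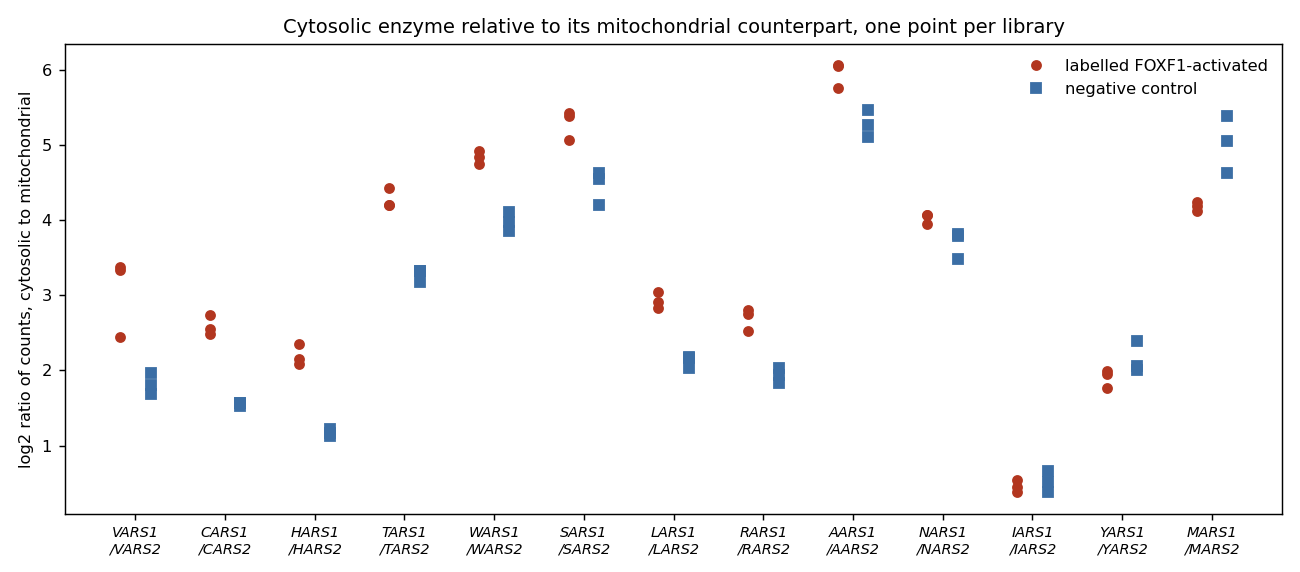
Log2 ratio of cytosolic to mitochondrial counts for the same amino acid in each library, by amino acid, with the libraries labelled FOXF1-activated beside the negative controls. The ratio is higher in every library labelled FOXF1-activated for 10 of 13 amino acids, while methionine (difference -0.84) and tyrosine (-0.25) lie lower.

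Other motifs were searched in the same promoter windows. The 90 bases before the first transcribed base of MARS2 hold the motif of NRF1, a factor known to drive genes of mitochondrial function (searched as GCGCATGCG, capitals with the next base), and the E-box CACGTG, the site of MYC and MAX, both in capitals. The same stretch of WARS1 holds the interferon response core GAAANNGAA in capitals. They are shown because NRF1, MYC and the interferon-gamma genes were themselves measured in these libraries:
MARS2, chr2:197705279-197705368, plus strand: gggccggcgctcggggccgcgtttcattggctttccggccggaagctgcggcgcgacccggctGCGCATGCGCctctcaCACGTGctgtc
WARS1, chr14:100375348-100375437, minus strand: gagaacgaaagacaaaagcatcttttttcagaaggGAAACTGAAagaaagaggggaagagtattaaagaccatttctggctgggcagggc
MARS2 was the only one of the 33 genes with the NRF1 motif (3.03%, beside 2.34% of all genes with a window). The E-box lay in windows of 5 of 33 (15.2%, beside 8.77% of all genes), and the interferon core in 6 of 33 (18.2%, beside 9.86% of all genes), both strands searched. Besides MARS2, the E-box lay in windows of AIMP2, which fell, and of IARS1, CARS2 and EARS2, which did not pass. Besides WARS1, the interferon core lay in windows of GARS1 and AIMP1, which rose, of EEF1E1, which fell, and of IARS1 and EARS2, which did not pass.

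The scaffold proteins did not move together. AIMP1, which is also cleaved to a secreted cytokine, was at 105, 106 and 113 CPM in libraries labelled FOXF1-activated, against 61.7, 61.3 and 62.9 CPM in negative controls (log2 fold change 0.80, SE 0.05, edgeR adjusted p = 9.74e-07). AIMP2, which binds several enzymes of the complex, was at 9.91, 10.8 and 12.5 CPM in libraries labelled FOXF1-activated, against 22.3, 24.2 and 20.9 CPM in negative controls (log2 fold change -1.02, SE 0.11, edgeR adjusted p = 3.44e-05). EEF1E1, also called AIMP3, was at 26.1, 24.0 and 25.2 CPM in libraries labelled FOXF1-activated, against 32.5, 32.7 and 36.0 CPM in negative controls (log2 fold change -0.43, SE 0.08, edgeR adjusted p = 9.77e-04). The groups were apart in all 3 genes, 1 higher and 2 lower, as they were in 68.8% of all tested genes. AIMP2 shares 532 exon bases, 28.9% of its exon length, with EIF2AK1 on the opposite strand, a kinase of eIF2 that fell too, at 99.6 ± 4.28 CPM in libraries labelled FOXF1-activated and 164 ± 3.11 CPM in negative controls. Whether reads were shared between them was not tested, since the strand setting of the counting is not given in the sources used here.

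Many synthetase genes start close to the start of a neighbour on the opposite strand, and some of these pairs overlap. For 15 of the 38 genes another tested gene starts on the opposite strand within 1000 bases. Neighbours that did not pass the filter on low counts were not counted. HARS1 and HARS2 are such a pair, with starts 436 bases apart. From this shared start region HARS2 fell and HARS1 did not pass. They share 437 exon bases, 11.7% of the exon length of HARS2, and HARS2 shares 152 more with ZMAT2 on the same strand, which fell too (log2 fold change -1.30). The part of shared reads in the HARS2 value and in the histidine ratio was not tested. GARS1 and its divergent transcript GARS1-DT, with starts 128 bases apart, both rose, GARS1-DT being at 34.5 ± 4.10 CPM in libraries labelled FOXF1-activated and 13.6 ± 0.758 CPM in negative controls (log2 fold change 1.35). GARS1 and GARS1-DT share 99 exon bases, 2.38% of the exon length of GARS1, on opposite strands. KARS1 rose beside TERF2IP, a telomere protein gene at 136 ± 18.6 CPM in libraries labelled FOXF1-activated and 34.5 ± 1.69 CPM in negative controls (log2 fold change 1.98). They share 176 exon bases, 4.33% of the exon length of KARS1, on opposite strands, and whether reads were shared was not tested. AARS1 fell beside DDX19B, an RNA helicase gene (log2 fold change -0.66). SARS2 had the opposite direction to MRPS12, a mitochondrial ribosomal protein gene with its start 348 bases away, which was at 13.04 ± 0.870 CPM in libraries labelled FOXF1-activated and 23.5 ± 2.22 CPM in negative controls (log2 fold change -0.85). SARS2 and MRPS12 share 349 exon bases, 10.8% of the exon length of SARS2, on opposite strands. Whether reads were shared in the GARS1 and SARS2 pairs was not tested. Among the 6 members with a neighbour that rose themselves, the neighbour rose in 3, fell in 2 and did not pass in 1. Among the 4 that fell, the neighbour fell in 3 and did not pass in 1, and among the 5 that did not pass, the neighbour rose in 2, fell in 2 and did not pass in 1. These counts stand beside 29.2% higher and 31.5% lower over all tested genes, and the pair of HARS1 and HARS2 is counted from each side. MARS1 also shares 355 exon bases, 5.05% of its exon length, with DDIT3 on the opposite strand, the stress factor CHOP, which was at 158 ± 22.1 CPM in libraries labelled FOXF1-activated and 34.6 ± 4.58 CPM in negative controls (log2 fold change 2.19).

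The genes around the synthetases were followed in lists, whose counts stand beside the 29.2% higher and 31.5% lower over all tested genes. Of 33 genes of ATF4 and the amino acid response 17 rose, 12 fell and 4 did not pass (median log2 fold change 0.32). SLC7A11, the cystine importer, averaged 694 ± 52.9 CPM in libraries labelled FOXF1-activated and 125 ± 1.82 CPM in negative controls (log2 fold change 2.47). TRIB3, a pseudokinase induced by ATF4, averaged 815 ± 15.2 CPM in libraries labelled FOXF1-activated and 159.7 ± 19.99 CPM in negative controls (log2 fold change 2.35). The list was not of 1 direction, since DDIT4, an inhibitor of mTORC1, averaged 194 ± 8.17 CPM in libraries labelled FOXF1-activated and 549.7 ± 26.3 CPM in negative controls (log2 fold change -1.51). ATF4 itself averaged 893 ± 27.8 CPM in libraries labelled FOXF1-activated and 714 ± 83.0 CPM in negative controls (log2 fold change 0.32, edgeR adjusted p = 0.00533). ASNS, the asparagine synthetase, rose with a log2 fold change of 0.92, while PYCR1 of proline synthesis (-1.20) and PHGDH of serine synthesis (-0.37) fell. Of 15 genes for eIF2 kinases, phosphatases and initiation factor subunits 12 rose and 1, EIF2AK1, fell (median 0.45). PPP1R15A, a phosphatase subunit that reverses eIF2 phosphorylation, averaged 501 ± 36.2 CPM in libraries labelled FOXF1-activated and 148 ± 6.33 CPM in negative controls (log2 fold change 1.76).

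**Figure D5:**
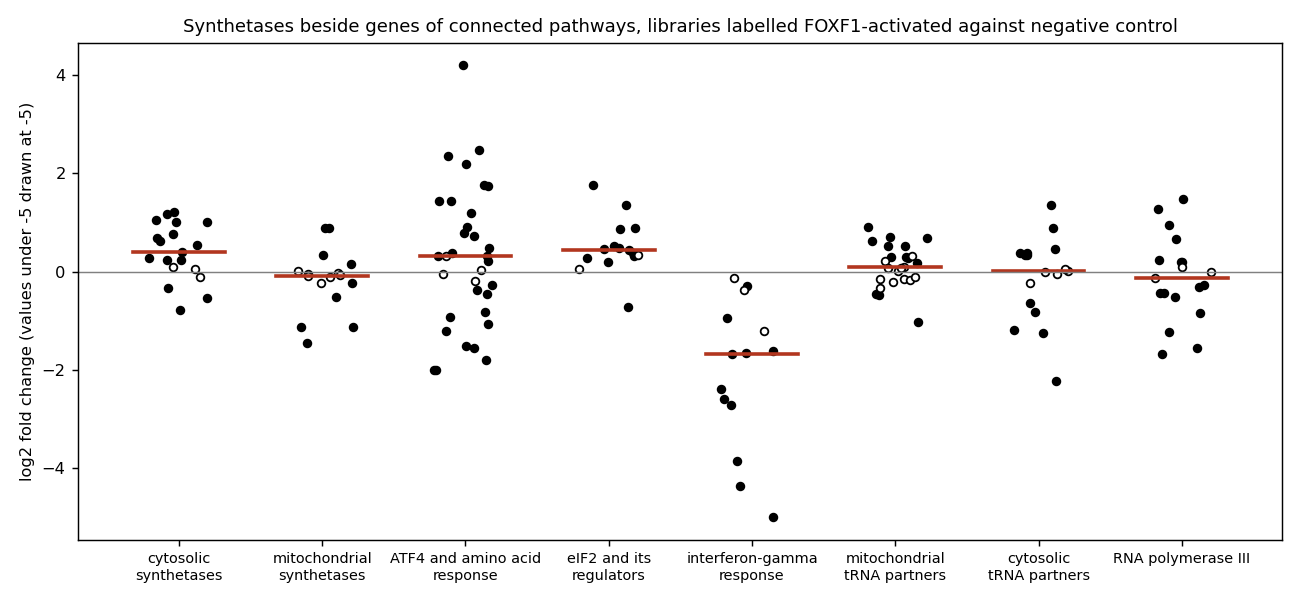
Log2 fold change (libraries labelled FOXF1-activated over negative control) of every tested gene in the synthetase classes and 6 lists, with a point per gene, filled where the threshold was passed and held at the lower limit of the axis where it lies below, and a line for the median. The eIF2 list has a median of 0.45 with 12 of 15 genes higher, and the interferon-gamma list a median of -1.67 with 11 of 14 lower.

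The listed partners of the synthetases, most of which handle tRNA or take part in translation, were mixed. Their counts again stand beside 29.2% higher and 31.5% lower over all tested genes. Of 25 mitochondrial partners, among them tRNA-modifying enzymes, elongation and release factors, 10 rose, 3 fell and 12 did not pass (median 0.09). MTRF1L, a mitochondrial release factor, averaged 54.1 ± 6.62 CPM in libraries labelled FOXF1-activated and 28.8 ± 2.17 CPM in negative controls (log2 fold change 0.91), and it rose. GTPBP3, which modifies mitochondrial tRNA, fell to 10.4 ± 1.01 CPM in libraries labelled FOXF1-activated, against 21.3 ± 1.69 CPM in negative controls (log2 fold change -1.03). QRSL1 (0.63) and GATB (0.51), subunits of the amidotransferase that makes glutaminyl-tRNA in mitochondria, rose, and the third subunit gene GATC had -0.17 and did not pass. Of 17 cytosolic partners 7 rose, 5 fell and 5 did not pass (median 0.02). XPOT, the export receptor of tRNA, averaged 695 ± 26.1 CPM in libraries labelled FOXF1-activated and 273 ± 11.97 CPM in negative controls (log2 fold change 1.35), while EEF1A1, the factor that carries charged tRNA to the ribosome, averaged 8950.2 ± 257 CPM in libraries labelled FOXF1-activated and 13877 ± 314 CPM in negative controls (log2 fold change -0.63). Of 19 genes for RNA polymerase III and its factors, which make tRNA, 7 rose and 9 fell (median -0.12), with POLR3A, the largest subunit of the enzyme, at a log2 fold change of 1.49.

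WARS1 rose, while the listed genes of the interferon-gamma response mostly fell. Of 14 tested genes of that list 11 fell and 3 did not pass (median log2 fold change -1.67). IRF1, the factor that interferon-gamma induces, averaged 23.5 ± 0.940 CPM in libraries labelled FOXF1-activated and 75.2 ± 4.08 CPM in negative controls (log2 fold change -1.68, edgeR adjusted p = 6.65e-08), and it fell. GBP1, an interferon-induced GTPase, averaged 4.62 ± 0.812 CPM in libraries labelled FOXF1-activated and 27.7 ± 1.32 CPM in negative controls (log2 fold change -2.59). Of 12 tested transcription factors tied to synthetase promoters 7 rose, 1 fell and 4 did not pass (median 0.45). MYC averaged 149.6 ± 7.22 CPM in libraries labelled FOXF1-activated and 62.9 ± 2.90 CPM in negative controls (log2 fold change 1.25), and it rose. CEBPG, a partner of ATF4, averaged 98.1 ± 5.61 CPM in libraries labelled FOXF1-activated and 42.9 ± 0.633 CPM in negative controls (log2 fold change 1.19). NRF1 fell, at 12.4 ± 0.861 CPM in libraries labelled FOXF1-activated and 18.3 ± 0.263 CPM in negative controls (log2 fold change -0.56), while MARS2, whose window holds its motif, rose.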

How the data were processed

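RNA was measured in 6 libraries, grouped by the treatment label. The deposited table holds whole-number counts per Ensembl gene, and no library-size scaling by the authors shows in them. The submitters' processing notes list cutadapt 1.9 and TopHat2 2.0.4, with the build GRCh38. Which tool, strand setting and annotation counted the reads is not given in the sources used here. The values 4, 8 and 12 were 2.36, 1.94 and 1.60 times as frequent as their neighbours, as if part of the counts had been multiplied by 4. Precision from depth may therefore be overstated. Symbols matched 60401 identifiers. Coordinates and lengths are from GENCODE 29.

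Genes were kept by filterByExpr (minimum count 10, minimum total 15), scaled by TMM and tested by quasi-likelihood (edgeR 4.0.16, R 4.3.3), adjusted by Benjamini-Hochberg over 20334 genes. Standard errors are fold changes on the log2 scale over the root of the F statistic, and CPM are TMM-scaled. Pair ratios used counts plus 0.5 and an exact permutation test. VARS1, YARS1, LARS1, AARS2 and VARS2 were not searched for motifs.

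The members, lists and tests were chosen with earlier results of these data known. Values per library are given for the 8 genes with the largest rise, the 8 with the largest fall, those that did not pass, selected pairs and the scaffold genes. From each list up to 4 genes with the smallest p could be named, and ATF4, MYC and NRF1 were named wherever tested. ASNS, PYCR1, PHGDH, QRSL1, GATB, GATC and the genes that overlap or neighbour a member were chosen after their values were seen. Some genes are not reported here. Alternatives were 3 scalings, 2 filters, GC and length offsets (limma 3.58.1 was used for voom), DESeq2 1.42.0, the replicate number as a block, counts divided by 4, leaving out the 50 highest genes and leaving out each library.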

Additional observations from a re-analysis of the deposited data

How the results depend on the processing

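Of the 38 genes 28 passed (73.7%), beside 60.7% of all tested genes. Of these 28 genes, 21 passed under all 17 alternatives, and the exceptions (FARSA, FARSB, NARS1, QARS1, IARS2, RARS2 and SARS2) kept their direction. The share of all tested genes that passes under every alternative was not computed. With library totals 11 cytosolic genes were higher and 4 lower, and 2 mitochondrial genes higher and 5 lower. With GC and length offsets 14 cytosolic genes were higher and 1 lower, and 6 mitochondrial genes higher and 5 lower. Upper-quartile scaling gave 15 cytosolic genes higher, and no filter 11. Without each library the cytosolic count was 11 to 13 higher and the mitochondrial count 3 higher. The cytosolic median was 0.50 with upper-quartile scaling, 0.33 with library totals and 0.48 with GC and length offsets, and the mitochondrial median 0.019, -0.16 and 0.043 under the same settings; without each library they spanned 0.36 to 0.42 and -0.11 to -0.04. The median over the genes tested in the report was 0.099 with upper-quartile scaling, 0.097 with GC and length offsets, -0.079 with library totals and 0.034 with DESeq2 size factors.

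Values close to 0 changed sign. CARS2 was 0.0045 with DESeq2 size factors, 0.070 with upper-quartile scaling, 0.013 with the filter of 1 CPM, 0.0031 with counts divided by 4 and 0.20 with GC and length offsets. EARS2 was 0.051 with upper-quartile scaling and 0.13 with offsets, NARS2 0.015 and WARS2 0.023 with upper-quartile scaling, and MARS1 -0.016 with library totals. TARS2 was -0.075 with library totals and -0.024 without a filter, and VARS2 was 0.10 with offsets. Leaving out each library in turn gave -0.083 to 0.022 for CARS2, -0.060 to 0.037 for TARS2, -0.48 to 0.074 for VARS2 and -0.14 to 0.0081 for the isoleucine ratio. A change of scaling moves all genes of a library together. The median over the genes tested in the report moved to 0.099 with upper-quartile scaling, -0.079 with library totals and 0.034 with DESeq2 size factors. The cause of the other shifts was not tested.

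Genes below the threshold in the report passed it elsewhere, namely HARS1 with library totals (-0.19), IARS1 (0.19) and MARS1 (0.16) with upper-quartile scaling, MARS1 (0.27), TARS2 (0.24) and CARS2 (0.20) with offsets, and VARS2 without FOXF1-activated replicate 3 (-0.48). With the replicate number as a block, 11790 genes passed against 12351. Deviations from the group means did not go together in libraries with the same number (r = -0.0202, -0.000998 and -0.0206). In libraries with different numbers r was 0.000177 to 0.0202. With 3 libraries per group such deviations sum to 0 within a group, so these values are not independent of each other. They show no sign of pairing by number, and the labels do not say whether the numbers pair libraries.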
